A study of Mus musculus with 8 samples.

Results

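Morc1 and 9 genes of the piRNA pathway were followed in mouse pre-iPSCs with and without vitamin C. Pre-iPSCs are partly reprogrammed cells that have not reached the pluripotent state. The 10 genes were Morc1, Piwil1, Piwil2, Piwil4, Mael, Tdrd1, Tdrd9, Mov10l1, Ddx4 and Asz1, out of 19938 genes measured. They were chosen by name with earlier results of these arrays known, so that the values of the vitamin C contrast itself entered the choice. Each of the 10 had 1 probe set with a single gene symbol, so the rule of taking the probe set with the highest mean left no choice. The vitamin C difference of the members is therefore given as a description, without a test, and only their changes in time and the other genes of the pathway were tested.

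PIWI proteins bind small RNAs called piRNAs and, guided by them, cut transposon RNA or bring DNA methylation to transposon copies in the male germ line. Piwil2 (also Mili) and Piwil4 (also Miwi2) act in fetal germ cells and Piwil1 (also Miwi) in later spermatogenesis, and Tudor domain proteins, RNA helicases and mitochondrial anchors assemble with them in granules. Morc1 is an ATPase that represses transposons in male germ cells and is not itself a piRNA factor. In somatic and in pluripotent mouse cells most genes of this kind are silent, with DNA methylation and a Polycomb complex that contains MGA, MAX and E2F6 acting at their CpG-rich promoters.

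The study used 1 pre-iPSC clone, named MaF pre-iPSC9P2 in the labels, plated on a feeder layer in medium for mouse embryonic stem cells. In the vitamin C group the medium held 50 µg/ml from day 2 on, and the untreated group had the same medium without it. RNA was taken on days 3, 4, 5 and 6 after trypsin and removal of feeder cells, with 1 Affymetrix whole-transcript array for each treatment and day, 4 arrays a group. A single day thus has no replicate, nothing says that the days were separate cultures, so that p-values cover no more than the spread among the 8 arrays.

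The 8 arrays correlated with each other between 0.977 and 0.994. Of 15 pluripotency markers, 12 lay on all 8 arrays above the 95th percentile of olfactory and vomeronasal receptor probe sets, used here as a rough guide to background (log2 values of 3.21 to 3.38). The pluripotency marker mean ran from 6.27 to 7.60 on the vitamin C arrays and from 5.74 to 6.12 on the untreated arrays. Fibroblast or feeder markers were present as well, 18 of 19 above the guide on all arrays, with a mean of 6.42 to 7.04 with vitamin C and 6.51 to 7.55 without. Of 37 germ cell genes outside the piRNA pathway 11 were above the guide on all arrays, and Dazl, an RNA-binding protein that defines germ cells, was below it on all 8. Because this is bulk RNA, more cells of a type and more RNA per cell cannot be told apart.

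Promoters were looked at because germ line genes of this kind are silenced at CpG-rich promoters. RefSeq windows of the 250 bases before the start (GRCm38.p6) were available for 8 of the 10 genes, 11 windows in all. Morc1 and Piwil2 had no entry, so they cannot be compared with the others. All 8 genes with a window moved little between treatments, also Piwil4 and Asz1, whose windows lack the motif marked below. The 3 promoters shown all hold it. Its part in the RNA levels was not tested. Capitals mark CACGTG, the palindromic E-box, which reads the same on both strands and which MGA with MAX can bind. Piwil1 lies at chr5:128735996-128736245 on the plus strand, Mael at chr1:166238745-166238994 and Ddx4 at chr13:112652311-112652560 on the minus strand, each written 5′ to 3′ in the direction of the gene.
Piwil1: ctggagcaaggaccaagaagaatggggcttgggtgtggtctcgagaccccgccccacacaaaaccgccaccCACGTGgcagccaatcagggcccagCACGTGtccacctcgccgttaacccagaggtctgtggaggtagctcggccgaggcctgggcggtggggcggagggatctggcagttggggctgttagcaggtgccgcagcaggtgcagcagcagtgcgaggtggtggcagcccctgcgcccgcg
Mael: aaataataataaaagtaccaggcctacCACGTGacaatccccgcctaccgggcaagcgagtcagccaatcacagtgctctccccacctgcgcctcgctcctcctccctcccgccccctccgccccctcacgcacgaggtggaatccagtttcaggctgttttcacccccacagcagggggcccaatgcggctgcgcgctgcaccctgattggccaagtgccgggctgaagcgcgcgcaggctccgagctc
Ddx4: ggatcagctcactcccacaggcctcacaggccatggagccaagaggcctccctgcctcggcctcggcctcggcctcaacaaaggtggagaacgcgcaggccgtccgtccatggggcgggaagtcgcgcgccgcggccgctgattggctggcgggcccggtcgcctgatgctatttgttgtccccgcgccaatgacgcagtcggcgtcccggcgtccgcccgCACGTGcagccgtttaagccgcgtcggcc

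The E-box stood in a window of 6 of the 8 genes (Piwil1, Mael, Tdrd1, Tdrd9, Mov10l1 and Ddx4) and in 7 of the 11 windows, where the overlapping first and second windows of Tdrd1 share 1 site. Among all 32851 promoter windows 6.02% held it, and of the 27025 genes with a window 6.86% had it in at least 1. Member windows were also richer in CpG, with a median of 15 CpG dinucleotides against 6 over all windows. Among windows with at least 10 CpG the E-box stood in 6 of 8 from members and in 9.37% of all. Those 6 include both overlapping windows of Tdrd1. The motif TCCCGC on either strand, which E2F6 can bind, stood in 2 of the 11 windows, those of Mael and Ddx4, and in 16.9% of all. In neither of the 2 did it overlap the E-box, although the letters of the motifs can share a base. These matches describe the letters of the windows and say nothing of binding in these cells.

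Morc1 had log2 values of 5.97, 7.06, 7.51 and 7.06 on the vitamin C arrays of days 3, 4, 5 and 6, against 3.84, 3.78, 3.77 and 3.87 on the untreated arrays. Every vitamin C array was above every untreated array, and the untreated values hardly moved. The mean was 6.90 ± 0.66 with vitamin C and 3.82 ± 0.05 without (SD over days, n = 4 each), a difference of 3.09 ± 0.22 on the log2 scale (moderated SE), or 8.49-fold. The daily differences were 2.13, 3.28, 3.74 and 3.20. By mean difference Morc1 ranked 3 of 19938 genes, and on single days it ranked 3, 3, 1 and 4. A difference of at least 2-fold was present on the first array, taken 1 day after vitamin C was added, and on all later ones, which held for 11 of all genes.

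Piwil2, a PIWI protein that binds piRNAs in fetal male germ cells, had log2 values of 4.67, 5.32, 5.93 and 5.64 with vitamin C on days 3 to 6, against 3.74, 3.60, 4.01 and 3.97 without. Here too the groups did not overlap, and the lowest vitamin C value was that of day 3. The mean was 5.39 ± 0.54 with vitamin C and 3.83 ± 0.19 without (SD over days, n = 4 each), a difference of 1.56 ± 0.16 (log2, moderated SE), or 2.94-fold. The daily differences were 0.92, 1.72, 1.91 and 1.67, of which that of day 3 was under 2-fold. Piwil2 ranked 18 by mean difference, and 114, 16, 23 and 66 on the single days.

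**Figure D1:**
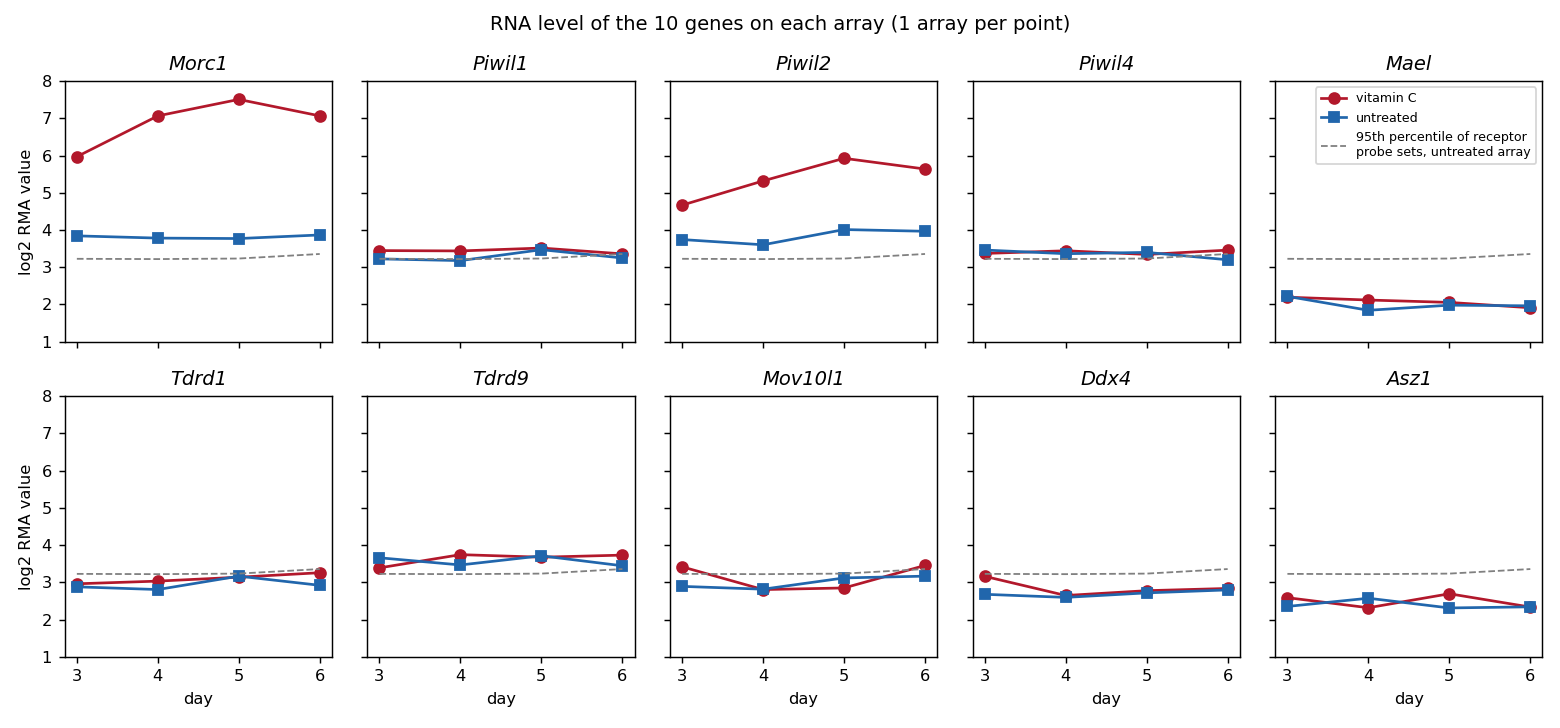
Log2 RMA value (vertical axis) against day (horizontal axis) for each of the 10 genes, with vitamin C as red circles, untreated as blue squares, 1 array per point, and the 95th percentile of receptor probe sets on the untreated arrays as a dashed line. Morc1 (5.97 to 7.51 with vitamin C, 3.77 to 3.87 untreated) and Piwil2 (4.67 to 5.93 with vitamin C, 3.60 to 4.01 untreated) separate by treatment, and the other 8 genes lie between 1.84 and 3.74 with overlapping lines.

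The other PIWI genes showed no such separation. Piwil1 lay between 3.36 and 3.52 with vitamin C and between 3.18 and 3.47 without, a mean difference of 0.16 ± 0.10 (log2, moderated SE). Piwil4, the nuclear PIWI protein that directs DNA methylation, lay between 3.34 and 3.46 with vitamin C and between 3.20 and 3.46 without, with a mean difference of 0.05 ± 0.11. Both genes had values on each side of the background guide, and in both the treatments overlapped.

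Among the Tudor domain genes, Tdrd1, a scaffold that binds Piwil2, had log2 values from 2.96 to 3.26 with vitamin C and from 2.81 to 3.17 without (difference 0.15 ± 0.11, moderated SE). Tdrd9, a Tudor protein with a helicase domain that works with Piwil4, ran from 3.39 to 3.74 with vitamin C and from 3.44 to 3.71 without (0.06 ± 0.13). It was the 1 gene of these 8 above the background guide on all arrays of both treatments, and its difference changed sign between days, from -0.27 on day 3 to 0.29 on day 6.

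The helicases and the remaining partners were likewise close to or under the guide. Ddx4 (also Vasa), the germ cell RNA helicase, had 3.16, 2.65, 2.78 and 2.84 with vitamin C on days 3 to 6, against 2.68, 2.60, 2.72 and 2.80 without (mean difference 0.16 ± 0.12), so that its largest difference, 0.48, was on day 3. Mov10l1, the helicase that starts piRNA production from precursor RNA, ran from 2.80 to 3.45 with vitamin C and from 2.82 to 3.17 without (0.13 ± 0.14). Its daily differences spread from -0.27 to 0.53, with the lowest on day 5 and the highest on day 3.

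Mael, a protein of the germ granule needed for transposon silencing, ran from 1.91 to 2.20 with vitamin C and from 1.84 to 2.22 without (0.07 ± 0.11). Asz1, which anchors the pathway at mitochondria, ran from 2.32 to 2.69 with vitamin C and from 2.31 to 2.57 without (0.09 ± 0.13). Mael, Ddx4 and Asz1 were under the guide on all 8 arrays.

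The groups did not overlap for 2 of 10, both higher with vitamin C, where this was so for 2.10% of all genes in that direction and for 2.61% in the other. The mean difference was at least 2-fold for the same 2, against 0.401% of all genes. These shares only describe the set, since the contrast chose Morc1 and Piwil2. For the other 8, mean differences lay between 0.05 and 0.16 with a median of 0.11, where the median over all genes was -0.01, and standard errors were 0.10 to 0.14. Of their 32 daily differences 21 were above 0 (48.5% over all genes and days), and none reached 2-fold. These differences share the same 8 arrays and are not independent. Of the 64 array values of these genes 22 were above the background guide. The guide was higher with vitamin C on day 3 (3.38 against 3.23) and day 4 (3.31 against 3.22). It was lower on day 5 (3.21 against 3.23) and day 6 (3.21 against 3.36). The part of background in the count was not tested.

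**Figure D2:**
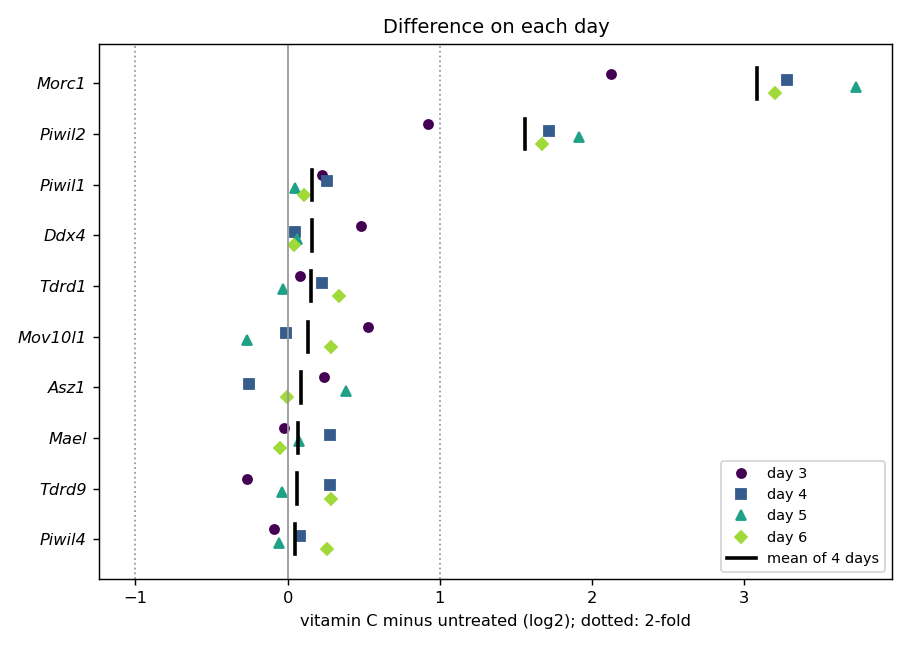
Vitamin C minus untreated (log2, horizontal axis) for each gene (vertical axis), with 1 symbol for each of days 3 to 6, a black bar for the mean of the 4 days and dotted lines at 2-fold. All 4 days of Morc1 (2.13 to 3.74) and Piwil2 (0.92 to 1.91) lie to the right of the other 8 genes, whose days lie between -0.27 and 0.53.

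**Figure D3:**
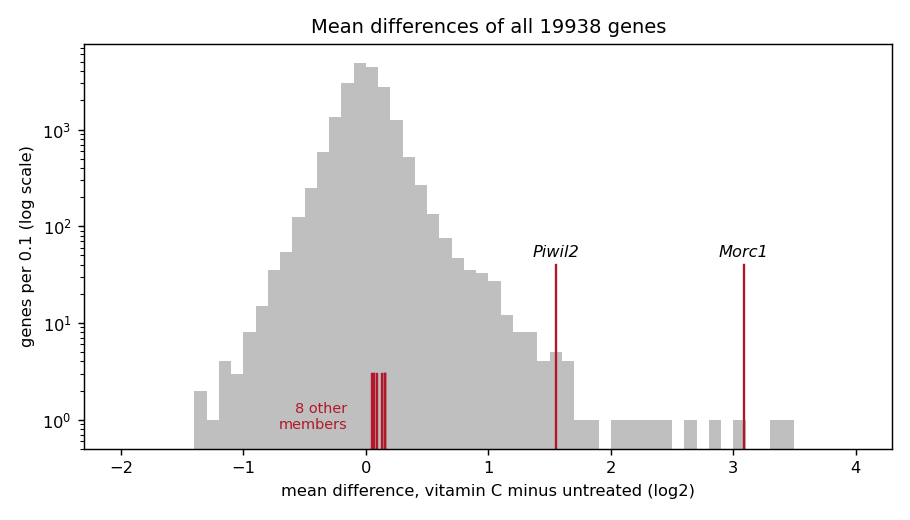
Number of genes (vertical log axis) by mean difference, vitamin C minus untreated (log2, horizontal axis, bins of 0.1), over all 19938 genes, with red lines for the 10 members. Morc1 (3.09) and Piwil2 (1.56) stand in the upper tail, and the other 8 between 0.05 and 0.16.

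Fibroblast or feeder markers were lower with vitamin C by 0.39 in the mean of the 19 genes and pluripotency markers higher by 1.09 in the mean of the 15. Of the fibroblast or feeder markers Col5a2 and Fbln2 were lower, and of the pluripotency markers Dppa2, Dppa5a, Nanog, Tfcp2l1 and Utf1 were higher (limma, adjusted p under 0.05). The calls were 2 of 19 lower and 5 of 15 higher, where 0.216% of all genes were called lower and 0.537% higher. Of the pluripotency differences 14 of 15 were above 0, with a median of 1.01. The largest were Dppa5a (3.44) and Dppa2 (3.33). Pou5f1 (-0.07), Klf4 (0.01) and Lin28a (0.21) differed little, and Sox2 (1.45) did not pass (limma adjusted p = 0.104). With the fibroblast or feeder marker mean in the model in place of day, the difference was 2.93 for Morc1 and 1.32 for Piwil2. Of the germ cell genes 0 of 37 passed in the vitamin C effect by limma. With 0.537% of all genes called higher and 0.216% lower, 0 of 37 says little. An unadjusted p under 0.05 was found for 6 of them (12.7% of all genes). The list mean was 3.28 to 3.60 with vitamin C and 3.21 to 3.42 without.

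Whether the members changed from day 3 to day 6 was tested within each treatment. A slope on evenly spaced days does not draw on the mean difference. The members were however chosen with earlier results of these arrays known, so these tests are not independent of that choice. With vitamin C, Piwil2 rose by 0.35 ± 0.10 per day (log2, SE, limma adjusted p = 0.0467 over all genes) and it was the 1 member of 10 that passed, where 5.25% of all genes rose and 3.39% fell (1046 and 676 genes, or 942 and 930 with arrays centred on their medians, where Piwil2 had an adjusted p of 0.0526). The call was a narrow one. It was lost without any 1 array other than that of vitamin C on day 6 (adjusted p from 0.0571 to 0.539). The slope itself was 0.37 without the vitamin C array of day 4 and 0.30 without that of day 5, leaving out an untreated array cannot move it, and without the vitamin C array of day 3 it was 0.16 per day. Morc1 had a slope of 0.37 ± 0.12 per day with vitamin C and did not pass (limma adjusted p = 0.085). Its values climbed until day 5 and were lower on day 6. Without the vitamin C array of day 6 the slope was 0.77 (adjusted p = 0.0148), and without that of day 3 it was 0.0003.

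Without vitamin C, 0 of 10 members passed by limma and 0 had an unadjusted p under 0.05, where 0.782% of all genes rose and 0.968% fell. The slope of Morc1 was 0.01 ± 0.12 and that of Piwil2 0.11 ± 0.10 per day. The other 8 had slopes from -0.09 to 0.10 per day with vitamin C and from -0.07 to 0.11 without.

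The difference between treatments grew by 0.37 ± 0.17 per day for Morc1 and by 0.24 ± 0.13 for Piwil2 (log2, SE), and neither passed (limma adjusted p = 0.454 and 0.528). No member of the 10 passed by limma, where among all genes the difference grew for 0.0652% and shrank for 0%. An unadjusted p under 0.05 was found for 0 of 10 members and for 11.3% of all genes. Without the vitamin C array of day 3 the estimate for Morc1 was -0.01, so that its size rests on that array. For Piwil2 it was 0.05 without the vitamin C array of day 3 and 0.52 without that of day 6.

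**Figure D4:**
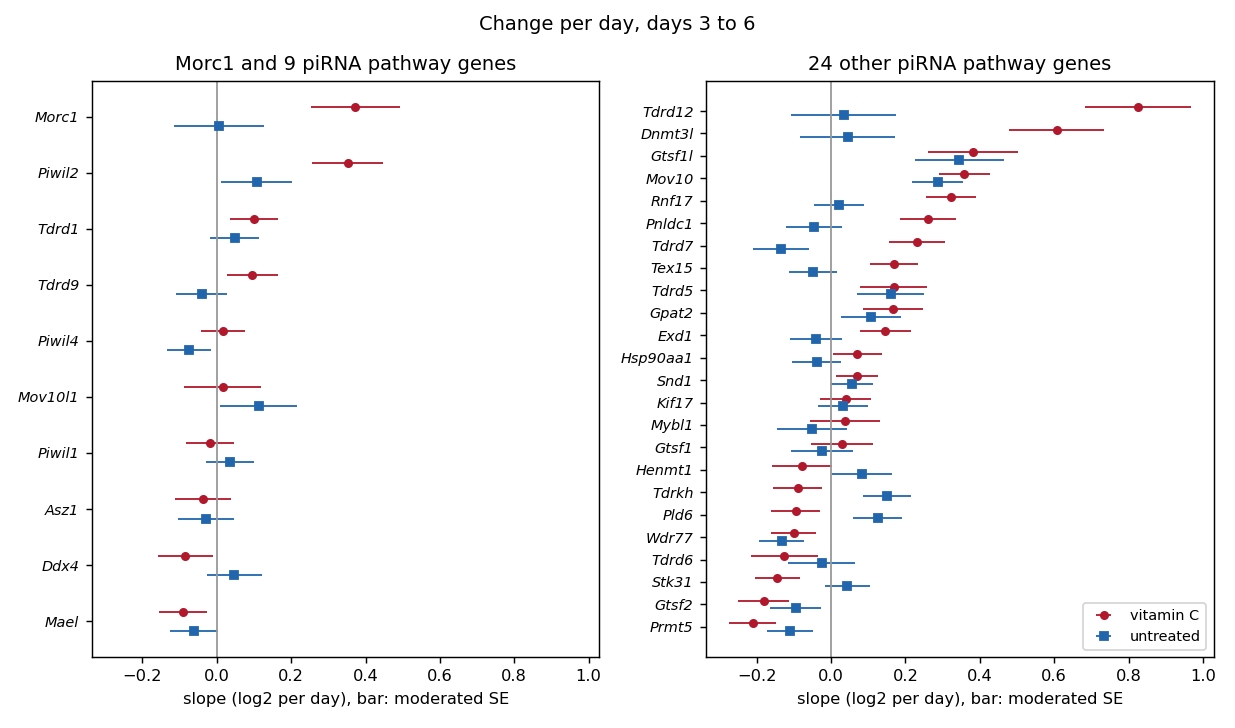
Slope in log2 per day (horizontal axis) with vitamin C (red circles) and without (blue squares), bars showing the moderated SE, for the 10 members (left) and 24 other piRNA pathway genes (right). With vitamin C Morc1 (0.37) and Piwil2 (0.35) lead the left panel, and Tdrd12 (0.83) and Dnmt3l (0.61) the right one.

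Of 27 other genes of the piRNA pathway, listed by name, 24 were measured. In the vitamin C effect over days 0 of 24 passed by limma, where 0.537% of all genes were called higher and 0.216% lower. An unadjusted p under 0.05 was found for 8 of 24, a larger share than the 12.7% of all genes. The list was chosen with earlier results of these arrays known, so that this only describes it. The median difference was 0.04, against -0.01 over all genes. Gtsf1l, named after its values were seen, came closest, with a difference of 0.54 ± 0.12 (SE, adjusted p = 0.0831), higher with vitamin C on 4 of 4 days. Gtsf1l is a relative of Gtsf1, a zinc finger partner of PIWI proteins.

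With vitamin C, 4 of the 24 rose from day 3 to day 6 and 0 fell by limma, against the 5.25% and 3.39% of all genes. They were Tdrd12, a Tudor protein needed for piRNAs that bind Piwil4, Dnmt3l, the cofactor of the DNA methyltransferases that act on transposons, Rnf17, a Tudor protein of later germ cells, and Mov10, an RNA helicase related to Mov10l1 that is expressed in many tissues. Without vitamin C 0 of 24 passed by limma, while 3 had an unadjusted p under 0.05, against 3399 of all 19938 genes. Mov10 passed there without dim genes (adjusted p = 0.0466) and with the trend and robust options (adjusted p = 0.0091). For the growth of the difference between treatments 8 of 24 had an unadjusted p under 0.05 by limma. That is a larger share than the 11.3% of all genes. The difference grew or shrank past the threshold for 0 of 24 by limma. Without the vitamin C array of day 3 it was 1 of 24, Tdrd12. The groups did not overlap for 0 of 24 genes higher with vitamin C and for 1 of 24 lower, against 2.10% and 2.61% of all genes. The 1 was Tdrkh, a mitochondrial Tudor protein of piRNA trimming, with a mean difference of -0.38 (limma adjusted p = 0.269). Its difference on day 3 was -0.02.

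Tdrd12 had log2 values of 3.37, 3.09, 4.46 and 5.66 with vitamin C on days 3 to 6, against 3.25, 2.76, 3.26 and 3.20 without. It was high on the vitamin C arrays of days 5 and 6 and near the guide on the others. The slope with vitamin C was 0.83 ± 0.14 per day (SE, limma adjusted p = 0.00686). The difference between treatments was 0.12 on day 3 and 2.47 on day 6. Its growth of 0.79 ± 0.20 per day did not pass (adjusted p = 0.194), nor did the mean difference of 1.03 ± 0.32 (adjusted p = 0.214). Without the vitamin C array of day 3 the growth was 1.25 per day and passed (adjusted p = 0.0186), and without that of day 6 it was 0.51 (adjusted p = 0.518). The mean difference was 0.55 without day 6 and 0.59 with the fibroblast or feeder marker mean in place of day.

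Dnmt3l had 3.39, 3.02, 4.60 and 4.88 with vitamin C, against 2.81, 3.19, 3.02 and 3.02 without. Its high arrays were the same pair, those of days 5 and 6. The slope with vitamin C was 0.61 ± 0.13 per day (limma adjusted p = 0.0173), and the growth of the difference, 0.56 ± 0.18 per day, did not pass (adjusted p = 0.288). Rnf17 reached 3.62 on the vitamin C array of day 6 and was under the guide on the other 7 (slope 0.32 ± 0.07, adjusted p = 0.0169). Mov10 had a slope of 0.36 ± 0.07 per day with vitamin C (adjusted p = 0.0115) and 0.29 without (adjusted p = 0.0692), and no mean difference past the threshold (-0.06 ± 0.12).

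All 4 calls were lost in the fit without the vitamin C array of day 6, but the slopes did not all shrink. Tdrd12 then had 0.54 per day (adjusted p = 0.219) and Rnf17 0.20 (adjusted p = 0.362), both over 1.5 times smaller. Dnmt3l kept a slope of 0.61 (adjusted p = 0.189), and that of Mov10 was larger at 0.45 (adjusted p = 0.0778). Without the vitamin C array of day 3 the call for Mov10 was also lost, with a slope of 0.39 (adjusted p = 0.0832). Over the same days the pluripotency marker mean on the vitamin C arrays was 6.27, 6.84, 7.33 and 7.60, and that of the fibroblast or feeder markers 7.04, 6.89, 6.68 and 6.42. The part of these changes in the slopes was not tested.

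Near relatives of Morc1 and of the PIWI proteins gave no call in the vitamin C effect. Of the 4 other Morc genes 0 passed in the vitamin C effect and 0 had an unadjusted p under 0.05 (limma). Over all genes 0.537% were called higher, 0.216% lower and 12.7% had an unadjusted p under 0.05, so that 0 of 4 says little. The differences were -0.01 for Morc2a, 0.09 for Morc2b, -0.02 for Morc3 and 0.14 for Morc4. Morc4 rose in time with vitamin C, by 0.48 ± 0.07 per day (limma adjusted p = 0.0044), and without the vitamin C array of day 6 the slope was 0.40 and did not pass (adjusted p = 0.139). The 4 Argonaute genes, which bind microRNAs, gave 0 calls in any comparison and 0 unadjusted p under 0.05 (limma). Between 11.3% and 24.9% of all genes had such an unadjusted p, by comparison, so that 0 of 4 says little here too. The Argonaute differences were -0.17 for Ago1, -0.15 for Ago2, -0.17 for Ago3 and -0.14 for Ago4.

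Of 16 other repressors of transposons, among them the co-repressor Trim28 and the histone methyltransferase Setdb1, 0 passed in the vitamin C effect by limma. With 0.537% of all genes called higher and 0.216% lower, 0 of 16 says little. An unadjusted p under 0.05 was found for 4, against 12.7% of all genes. The groups did not overlap for 0 of 16 higher and 1 of 16 lower, against 2.10% and 2.61% of all genes. The 1 was Setdb1, with a mean difference of -0.19 (limma adjusted p = 0.494). With vitamin C the DNA methyltransferase genes Dnmt3a and Dnmt3b rose in time and Zfp57, a zinc finger gene of imprint maintenance, fell, with slopes of 0.27, 0.55 and -0.25 per day. The call for Dnmt3b held with each of the 8 arrays left out in turn, that for Zfp57 in 2 of the 8 fits (slopes from -0.32 to -0.15) and that for Dnmt3a in 0 (limma adjusted p from 0.0608 to 0.184, slopes from 0.24 to 0.35). Dnmt3b rose without vitamin C as well, by 0.32 per day, a call that held in 3 of the 8 (slopes from 0.27 to 0.40). Of the 37 germ cell genes Rec8, Prdm1, Prdm14, Hormad1, Kit and Gfra1 rose in time with vitamin C, 6 of 37 where 5.25% of all genes rose (limma adjusted p from 0.000523 for Rec8 to 0.0293 for Hormad1). Rec8, a meiotic cohesin, stayed past the threshold with each array left out in turn, and the other 5 were lost at least without the vitamin C array of day 6. Of the slopes of these 6 genes that of Hormad1 moved most in proportion, between 0.31 and 0.56 per day. Prdm1 also rose without vitamin C (adjusted p = 0.0428), a call that held in 2 of the 8 fits, with slopes from 0.42 to 1.03. The other 5 had untreated slopes above 0 as well, from 0.09 for Gfra1 to 0.30 for Kit (limma adjusted p = 0.0512), and did not pass. The difference between treatments grew or shrank past the threshold for 0 of 37 by limma, against 0.0652% and 0% of all genes. Of 10 markers of somatic cells of the gonad Gata4 rose with vitamin C, and Inhba fell in both treatments. Without vitamin C Gata4 had a slope of 0.38 per day and did not pass (limma adjusted p = 0.0932). With vitamin C the calls for Gata4 and Inhba were lost without the array of day 6. The slope was then 0.37 for Gata4, against 0.67 with all arrays, and -0.55 for Inhba, against -0.39.

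The genes closest in profile to Morc1, by the root mean square distance between log2 profiles centred on their mean over the 8 arrays, were Clec2g (0.25), Dppa2 (0.27), Dppa5a (0.41), Clec2i (0.52) and Dmrtc1b (0.55). Those closest to Piwil2 were Acp5 (0.20), Grhl2 (0.21), Mep1b (0.21), Mzb1 (0.21) and Slc27a2 (0.22). Members, predicted genes, genes with clone names and olfactory or vomeronasal receptors were left out of both searches. The distance between Morc1 and Piwil2 was 0.78, since their differences were of unequal size. Dppa2, for example, had 5.35, 6.99, 7.16 and 7.11 with vitamin C on days 3 to 6, against 3.51, 3.28, 3.48 and 3.03 without, and Grhl2 had 4.78, 5.48, 6.06 and 6.23, against 4.07, 4.21, 4.05 and 4.14 without.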

How the data were processed

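Values were 1 table of 28853 probe sets on 8 arrays, made by the authors with the RMA method and the Partek program, both named per the submitters' processing notes. Program versions, options and the genome build: not given in the sources used here. As deposited, the values read as log2, since the largest, 13.8, lies above the natural log and under the log2 of a 16-bit reading. RMA evens out the distributions of arrays, so a shift of all genes would not show, and it gives no detection call, so low values hold background.

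The platform annotation listed 23410 probe sets, 21789 with 1 symbol, which gave 19938 genes by the highest mean probe set. RefSeq (GRCm38.p6) gave chromosomes and promoters. limma 3.58.1 in R 4.3.3 was used, two-sided, with Benjamini-Hochberg adjustment over all genes and calls at 0.05. The model for vitamin C had day as a factor, since the 2 arrays of a day form a pair by the labels, and the slopes and the interaction came from a model with a slope on day for each treatment. Tables and plots used Python 3.11.15. The fits were tested on simulated data.

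Members, lists and tests were chosen with earlier results of these data known. The text names all members, genes of the pathway and relative lists past the threshold (marker lists mostly by count). It also names the 5 nearest profiles to Morc1 and to Piwil2, with members, predicted genes, clone names and receptors left out. For the Argonaute list, with no call, the 4 smallest p-values were named. Gtsf1l, Tdrkh, Trim28, Setdb1, Dazl, Pou5f1, Klf4, Lin28a, Sox2 and the remaining Morc genes were named in addition. Alternatives were normalization, filtering, probe set averaging, the variance prior, the threshold, the use of day, a marker covariate and leaving out arrays. The number of arrays limits the precision.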

Additional observations from a re-analysis of the deposited data

Results flagged for a closer look

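In the groups of 4 arrays, 1 value of the 20 member groups stood apart by Dixon's test. On the untreated arrays Asz1 had 2.57 on day 4, against 2.31 to 2.35 on the other days, and this gap was 0.845 of the whole range. Chance marks about 1 in 20 groups, and all 4 values lay under the background guide.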

How the results depend on the processing

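The differences of Morc1 (2.87 to 3.40) and Piwil2 (1.32 to 1.77) moved by less than the spread between days in all 12 alternatives. In 5 of these the value cannot move, by construction: the fit with no replicate block (day left out, 3.09 and 1.56), day as a number, the trend and robust options, no dim genes, and probe set means. Those 5 say nothing about stability or about the pairing of arrays by day. In the fits without 1 day the value can move, but for any gene by less than the spread between days. Staying under that spread was thus fixed in advance there and says nothing about stability. The differences of the other 8 members stayed between -0.02 and 0.27. Of the changes in time, the Piwil2 slope with vitamin C was 0.33 with arrays centred on their medians (adjusted p = 0.0526) and 0.16 to 0.63 with 1 array left out, and the Morc1 slope was 0.0003 to 0.77 with 1 array left out and 0.37, past a threshold of 0.1. Members called for a slope with vitamin C numbered 1, 0 with centred arrays, 2 at a threshold of 0.1 and 0 to 2 with 1 array left out. The growth of the Morc1 difference was -0.0057 to 0.76 with 1 array left out, reversed without vitamin C day 3. Other piRNA genes with a slope with vitamin C numbered 4, 8 at a threshold of 0.1 and 0 to 5 with 1 array left out.

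Over all genes, the vitamin C effect called 150 genes, 376 with trend and robust options, 291 with day as a number, 17 with no replicate block, 14 with the marker mean, 384 at a threshold of 0.1 and 3 to 286 without a day. Trend and robust options split them 213 higher and 163 lower, day as a number 170 and 121. The interaction called 13 genes, 21 with quantile normalization again, 80 with trend and robust options, 42 at a threshold of 0.1 and 0 to 29 with 1 array left out. The slope with vitamin C called 1722, 2917 at 0.1 and 270 to 1680 with 1 array left out. The slope without it called 349, 782 with trend and robust options, 773 at 0.1 and 8 to 530 with 1 array left out. Centring on array medians split the slopes with vitamin C 942 higher and 930 lower, against 1046 and 676. Dim members (Mael, Tdrd1, Mov10l1, Ddx4 and Asz1) had no value without dim genes. The cause was not tested, other than that leaving out arrays leaves fewer of them.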
